A study of Mus musculus with 20 samples.

Results

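GPS2 belongs to the corepressor complexes built on N-CoR and SMRT, which bind chromatin through transcription factors and carry histone deacetylase activity. It is also known as a protein that moves from mitochondria to the nucleus when mitochondria are stressed, which is the subject of the study. Brown adipose tissue is rich in mitochondria and burns fuel to make heat. A chromatin immunoprecipitation for GPS2 from tissue in which the gene is deleted in adipocytes served here as the control of the peak calls.

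The peaks described here are places in brown adipose tissue that were called for GPS2 in the wild-type library although the knockout library also held tags there. Members were selected on measured values. A member is a peak on chromosomes 1 to 19 with fewer than 15 normalized tags (wild-type tags scaled to a library of 10000000 tags), with a deposited knockout tag value of at least 6, and with no base shared with a peak of the other brown adipose list or of either 3T3-L1 list. The female list held 309 members among 18722 peaks on these chromosomes (1.65%, Wilson 95% interval 1.48 to 1.84). The male list held 2705 members among 39649 peaks (6.82%, 6.58 to 7.07). In all, 3014 of the 164307 peaks in the 4 lists of the series are members.

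Of 20 mouse samples, the brown adipose GPS2 libraries are 4: 1 wild-type and 1 knockout library for each sex. The knockout came from a cross of Gps2 flox/flox animals with heterozygous Adipoq-Cre animals, in which the adiponectin promoter drives the recombinase, on a mixed 129sv/C57BL6J background. Controls were littermates of that background, labelled wild type with no further allele named, and no age is given in the labels. The labels do not say how many animals a library holds. The adiponectin promoter is active in adipocytes, so the vascular, immune and precursor cells of the tissue are not targeted. The other lists used here, for overlap only, are GPS2 peaks of the mouse preadipocyte line 3T3-L1, either untreated or given FCCP, an uncoupler of mitochondrial respiration. Sex is given as each sample is labelled, although the growth protocol speaks of male mice throughout.

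The wild-type libraries held 39310667 tags for females and 30069322 for males. From the size of 1 tag in the scaled columns, the knockout libraries held about 36400000 and 44400000 tags. Peaks were 138 bp long in the female and 135 bp in the male list. With 1 library per sex and genotype there is no replicate check, no p-value is given for any difference, and intervals cover counting error only.

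The same deposited limit of 6 stood for different numbers of knockout tags. Knockout tags in the female list are given as counted, so the limit was 6 tags, or 1.65 per 10000000. In the male list they are scaled down to the shallower wild-type library, the first value above the limit is 6.1, and it stands for 9 tags, or 2.03 per 10000000. With a common limit of 2 tags per 10000000 the female list had 90 members and the male list the same 2705.

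The rule narrowed the lists as follows. In the female list, 495 of 18611 peaks below the height limit had at least 6 knockout tags, and 186 of them overlapped another list: 140 a male peak and 65 a 3T3-L1 peak. In the male list, 3571 of 39571 peaks below the height limit passed the knockout limit, and 866 of them overlapped another list: 581 a female peak and 333 a 3T3-L1 peak. The height limit removed 107 female and 78 male peaks that also passed the knockout limit.

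Female members just inside the limit, with 6 knockout tags, numbered 152 and had a median of 21 wild-type tags and a median of 3.24-fold over the knockout. The 357 female peaks just outside it, with 5 knockout tags, had 19 wild-type tags and 3.52-fold. In the male list, 838 members with 9 knockout tags had a median of 20 wild-type tags and 3.28-fold, and 1088 peaks with 8 knockout tags had 18 and 3.32-fold. The limit therefore cut through a continuous range of peaks in both lists.

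These values chose the members and are given as description. Female members had 5.09 to 14.2 normalized tags with a median of 5.85, where the whole female list had a median of 3.31. Male members had 5.65 to 14.6 with a median of 7.65, where the whole male list had 4.32. The call itself asked for at least 2-fold and a Poisson p of at most 0.0001 over the knockout, so that a peak with many knockout tags had to be tall: no female member with 6 knockout tags had fewer than 20 wild-type tags, and no male member with 9 had fewer than 18. Many members lay at the lowest value, 49.2% of female members at 6 knockout tags and 31.0% of male members at 9. The upper quartiles were 8 and 12 knockout tags, and the highest values were 22 and 28.

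Members were about 3-fold over the knockout. The median was 3.09 in females (quartiles 2.91 and 3.39) and 3.10 in males (2.83 and 3.40). A fold of at least 4 was held by 18 of 309 female members (5.83%), against 91.3% of the female list, and by 177 of 2705 male members (6.54%), against 78.2% of the male list; the rule used this contrast, so the gap was set by the choice of members. A female peak with the median 23 wild-type and 7 knockout tags has a fold of 3.04 with an exact 95% interval of 1.26 to 8.39. A male peak with 23 and 10 tags has 3.39 (1.55 to 7.99). The lower bound passed 2 for 4 female and 141 male members, so for most members counting error spans the 2-fold limit of the call.

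**Figure D1:**
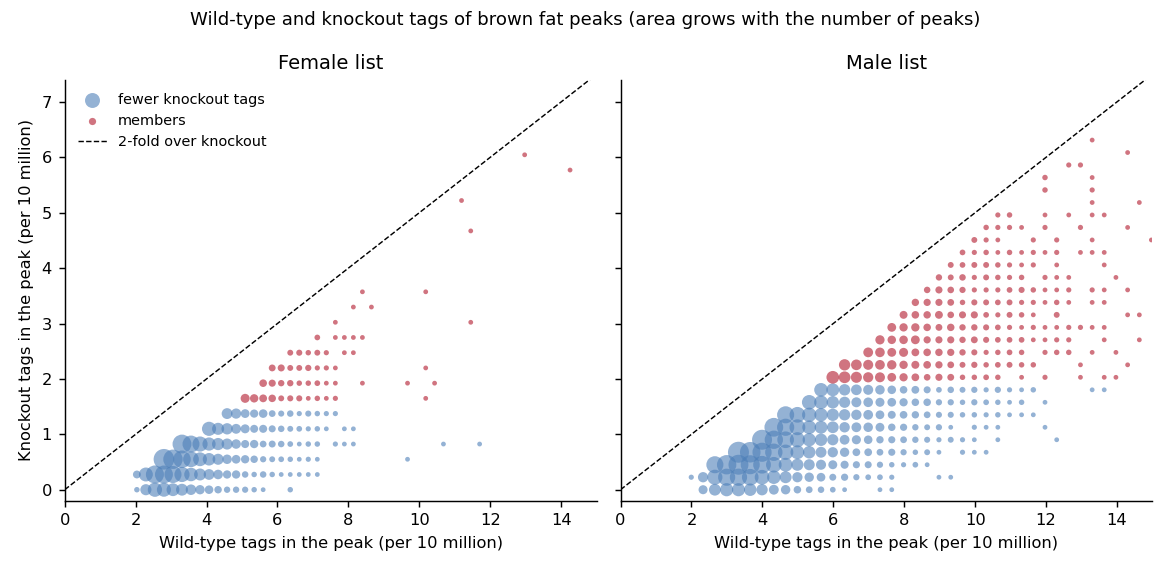
Wild-type tags (horizontal axis) against knockout tags (vertical axis), both per 10000000 tags, for members (red) and for peaks that meet every part of the rule except the knockout limit (blue), in the female and male lists; larger points stand for more peaks and the dashed line is 2-fold over the knockout. Members begin at 1.65 knockout tags per 10000000 in the female and 2.03 in the male list and reach toward the line as both values grow.

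The female members with the most knockout tags were also among the tallest. At chr17:31421652-31421790 (positions in mm8), the wild-type library held 51 tags and the knockout library 22, which is 2.15-fold (exact 95% interval 1.28 to 3.72). At chr9:83355859-83355997, they held 56 and 21 tags (2.47-fold, 1.47 to 4.29). Both stood well above their surroundings in the wild-type library, at 13.5-fold and 16.5-fold. They were the only female members with a clonal fold of at least 1.5 (1.95 and 1.94), HOMER's measure of tags falling on fewer positions than expected, for which the call allowed at most 2. They were followed by chr8:20286980-20287118 (44 and 19 tags, 2.14-fold), chr6:47702181-47702319 (45 and 17 tags, 2.45-fold) and chr18:75725269-75725407 (40 and 13 tags, 2.85-fold).

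The male member with the most knockout tags lay at chr6:47580330-47580464, with 40 wild-type and 28 knockout tags (2.11-fold, 1.27 to 3.55). It was followed by chr4:153939219-153939353 (43 and 27 tags, 2.35-fold) and 154741439 to 154741573 (39 and 26 tags, 2.21-fold). At chr6:115193260-115193394, and chr11:68910902-68911036, the libraries held 38 and 26 tags (both 2.15-fold). The intervals of these 5 folds all include 2. None includes 1, but that held for all 309 female and 2705 male members, which had passed the Poisson limit of the call.

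The female and the male chromosome 6 member with this many knockout tags both lie in a stretch of tall peaks, 47.5 to 47.75 Mb. There the female list had 13 peaks of at least 15 normalized tags and 1 member, and the male list 17 and 1. The female member was 2.23-fold over its surroundings and the male one 2.33-fold, near the 2-fold limit for the local region.

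At the other end, the members with the highest fold over the knockout had few knockout tags for their height. The highest female value was at chr11:106032478-106032616, with 40 wild-type and 6 knockout tags (6.17-fold, 2.60 to 17.8). Next came chr8:107233208-107233346 (41 and 7 tags, 5.42-fold), and chr12:91993942-91994080 (38 and 7 tags, 5.02-fold), then chr2:167376469-167376607, and chr11:97285137-97285275 (both 4.63-fold). The highest male value was at chr1:193150254-193150388, with 42 and 9 tags (6.88-fold, 3.30 to 16.1). It was followed by chr8:8948637-8948771 at 6.72-fold, chr3:103149507-103149641 at 6.39-fold, chr11:77876681-77876815 at 6.34-fold, and chr6:88697779-88697913 (5.90-fold). At all of these the interval stayed above 1, as it did at every member, and at the first 4 female and all 5 male ones above 2.

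The lowest folds over the knockout repeat some of the members with the most knockout tags. The others were, in females, chr14:68425402-68425540 (33 and 13 tags, 2.35-fold), and in males chr7:28095373-28095507, chr15:79910587-79910721, and chr17:84020034-84020168 (36 and 25 tags each, 2.12-fold), and chr8:11253648-11253782 (32 and 22 tags, 2.14-fold).

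A measure that the knockout limit did not use is the fold of a peak over the surrounding 10000 bp of the wild-type library itself. Its median was 6.26 for female members (quartiles 5.25 and 7.80), against 5.17 for the 15982 female peaks that meet every part of the rule except the knockout limit. For male members it was 6.46 (4.91 and 8.42), against 5.91 for 33582 such male peaks. Members are taller, so these comparison peaks were then weighted to the members' numbers of wild-type tags. At equal height the medians were 6.23 for members and 6.13 for comparison peaks in females, a difference of 0.10 (interval of the members' median, -0.23 to 0.39), and 6.44 against 6.43 in males, a difference of 0.01 (-0.11 to 0.12). With peaks that overlap other lists kept in, the male difference was 0.21 (0.07 to 0.32). These intervals leave out the counting error of the comparison median, so they do not bound the difference. The weighting rests on 526 female and 3373 male comparison peaks and covers 296 and 2670 of the members, since the others had no comparison peak with as many tags. At least 8-fold over the surroundings were 64 of 309 female members (20.7%), against 14.3% of the whole female list and 17.7% of height-matched peaks. In males they were 786 of 2705 (29.1%), against 24.3% of the list and 28.7% of height-matched peaks. The intervals of the members' shares, 16.6 to 25.6 and 27.4 to 30.8, hold the height-matched values in both lists.

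Peak shape was a further measure. The focus ratio, the share of a peak's tags on the expected side of its centre, had a median of 0.739 in female members and 0.741 in male members. The height-matched comparison peaks had 0.733 and 0.750, and the unmatched ones 0.762 and 0.778. The interval of the female members' median, 0.723 to 0.757, holds the height-matched value, and that of the male members, 0.737 to 0.744, lies below it. The error of the height-matched medians is not in these intervals. Clonal folds of at least 1.5 were held by 2 of 309 female members (0.647%, Wilson 95% interval 0.178 to 2.33) and 14 of 2705 male members (0.518%, 0.309 to 0.867). Among comparison peaks they were held by 0 of 15982, which allows up to 0.0240% (Wilson 95% interval), and 55 of 33582 (0.164%, 0.126 to 0.213). In the whole lists they were held by 37 of 18722 female (0.198%) and 82 of 39649 male peaks (0.207%). The interval of the female members includes the whole-list share, and that of the male members lies above it. Members are taller, and these differences were not matched for height.

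The knockout tags of a peak can also be set against the wild-type surroundings, by dividing its fold over the local region by its fold over the knockout. A value of 1 means that the knockout library held as many tags in the peak as the wild-type library held on average around it. The median was 1.98 in female members and 2.04 in male members. Among height-matched comparison peaks it was 1.05 and 1.10. It lay above 1 for 304 of 309 female members (98.4%) and 2623 of 2705 male members (97.0%), against 37.4% and 55.9% of the whole lists. At 2 or more were 150 female (48.5%) and 1414 male members (52.3%), against 5.78% and 13.9% of the whole lists. Of height-matched comparison peaks, 3.97% in females and 9.82% in males were at 2 or more. The knockout limit enters this ratio, so it describes the members and is no test. The local level of the knockout libraries themselves was not used here.

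**Figure D2:**
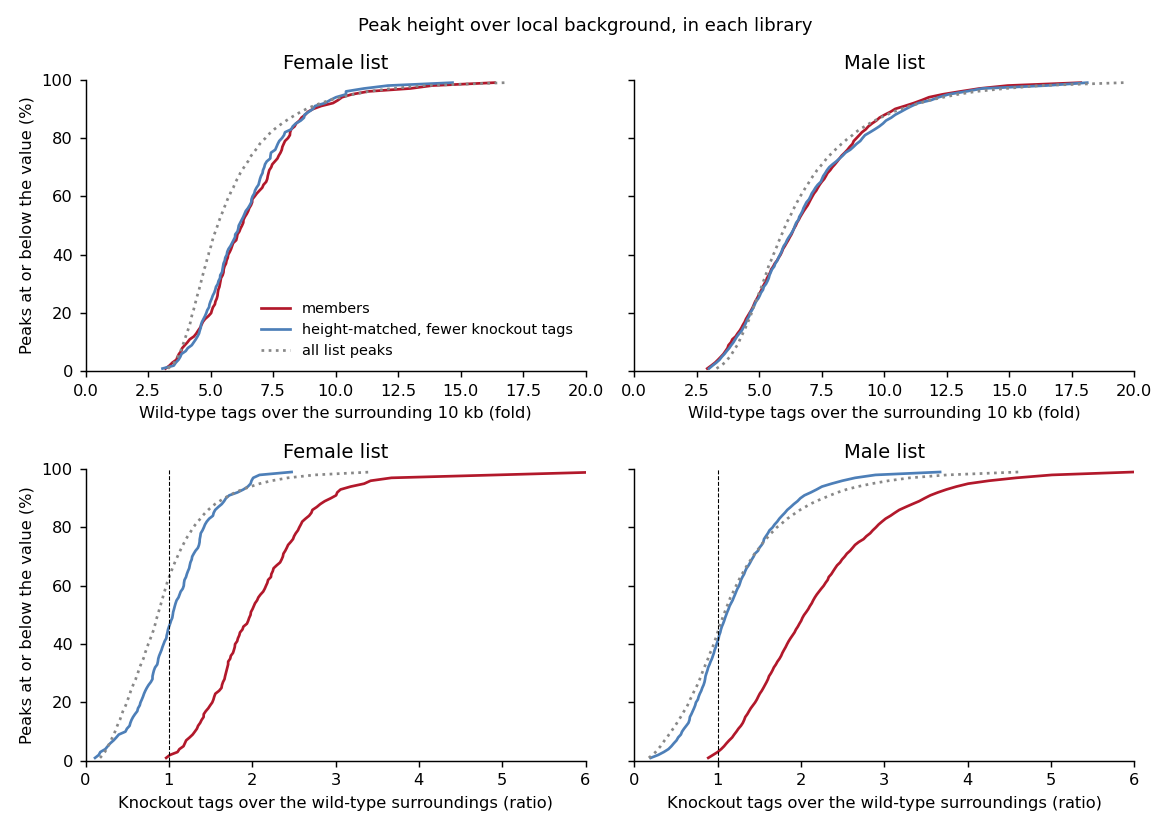
Cumulative share of peaks (vertical axis, percent) by fold over the surrounding 10 kb of the wild-type library (upper panels) and by knockout tags relative to these surroundings (lower panels, dashed line at 1). In the upper panels members (red) and height-matched peaks with fewer knockout tags (blue) lie close together, with medians of 6.23 and 6.13 in females and 6.44 and 6.43 in males. In the lower panels they are apart, as the rule requires.

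Members varied widely in local contrast. The highest female folds over the surroundings were at chr18:31005011-31005149 (26.9-fold, 26 wild-type and 7 knockout tags), and chr1:127694413-127694551 (19.2-fold, 32 and 12 tags). They were followed by chr1:41004240-41004378 (17.7-fold), the chromosome 9 peak named above (16.5-fold) and chr18:56195229-56195367 (15.1-fold). The highest male ones were at chr3:112348285-112348419 (47.9-fold, 19 and 10 tags), and chr5:82242216-82242350 (43.8-fold, 18 and 9 tags). Next came chr4:64081437-64081571 (36.5-fold, 35 and 20 tags) and 49107423 to 49107557 (33.8-fold), and chr2:110873597-110873731 (32.3-fold). At these 5 male peaks the knockout tags were 10.1 to 17.1 times the wild-type surroundings, which were sparse in wild-type tags. The knockout library held 9 to 20 tags there, where male members had a median of 10. These peaks were picked for their local fold, which enters this ratio.

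The lowest female folds over the surroundings, after the chr6:47702181-47702319 peak, were at chr3:96642816-96642954 (3.08-fold), chr14:68290312-68290450 (3.13-fold), chr19:5842105-5842243 (3.20-fold), and chr9:63766499-63766637 (3.21-fold). The lowest male ones were at chr8:56619087-56619221 (2.12-fold), the most knockout-rich male peak on chromosome 6 (2.33-fold), chr5:125676931-125677065 (2.48-fold), chr3:96660949-96661083 (2.54-fold), and chr7:141307065-141307199 (2.55-fold). At 9 of these 10 the knockout tags were below the wild-type surroundings, with ratios of 0.865 to 0.991. The exception was that chromosome 6 peak, at 1.10.

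Low and high local contrast went with different neighbourhoods. Of the 25% of male members with the lowest local fold, 556 of 676 (82.2%) had another peak of the male list within 10 kb, against 303 of 677 (44.8%) of the 25% with the highest. In females these were 30 of 77 (39.0%) and 15 of 78 (19.2%). A 3T3-L1 peak within 100 kb was the reverse: 390 of 676 (57.7%) and 564 of 677 (83.3%) in males, 48 of 77 (62.3%) and 62 of 78 (79.5%) in females. Neighbouring peaks that lie within the local region add to its tags, and how far that sets these shares was not tested.

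Some members lay close to one another along the genome. Another member lay within 10 kb of 543 of 2705 male members (20.1%, 18.6 to 21.6) and 10 of 309 female members (3.24%, 1.77 to 5.85); the male list has more members, so these shares are not comparable between lists. They formed 237 male runs, of which 184 had 2 members, 43 had 3, 7 had 4, 2 had 5 and 1 had 8, and 5 female runs of 2. List peaks within 10 kb were then counted around each male member, so a peak near several members counts several times. Of these 3010 neighbours 744 were members (24.7%), where members make up 6.82% of the list. Around height-matched comparison peaks the share was 22.8%. In females the shares were 7.58% around members, 6.65% around height-matched peaks and 1.65% in the list. The shares around members were thus above the list average and a little above those around other tall peaks, which were not tested against each other. Male members in runs had a median of 4.76-fold over their surroundings, against 6.93 for the rest, and a median of 11 against 10 knockout tags.

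The longest male run lay at chr10:79544350-79579144, with 8 members in 34795 bp. From left to right the wild-type library held 35, 25, 35, 22, 21, 22, 27 and 21 tags and the knockout library 18, 10, 10, 10, 10, 9, 12 and 9. The first of them had the most knockout tags, and the third the highest fold over the knockout (5.16). Local folds were low, from 2.92 to 5.24. The male list had 11 peaks in this stretch, the female list 2, neither of them a member, and the 3T3-L1 lists 0. The 1 Mb windows from 79 to 80 Mb and 80 to 81 Mb of this chromosome held 21 and 18 male members, the most of all windows, and 1 female member each. They held 58 and 59 peaks of the male list, and members make up 6.82% of the whole male list. The female list had 42 peaks over both windows.

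The next male run, at chr3:96637514-96647644, had 5 members with 22, 36, 41, 28 and 30 wild-type tags and 11, 16, 18, 15 and 18 knockout tags. A female member, the chromosome 3 peak with 21 and 6 tags named above, lies inside it. Over the wider stretch between 96.6 and 96.7 Mb, which was picked with its values in view, the male list had 13 peaks, 8 of them members, and the female list 6 with 1 member. Another 3 male and 2 female peaks there met the height and knockout limits but overlapped another list. Male members in this stretch were 2.54- to 4.22-fold over their surroundings. In the third male run, at chr7:28081658-28095507, the 5 members had 25, 30, 25, 30 and 36 wild-type and 9, 13, 12, 12 and 25 knockout tags. The last of these is also one of the lowest folds over the knockout.

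**Figure D3:**
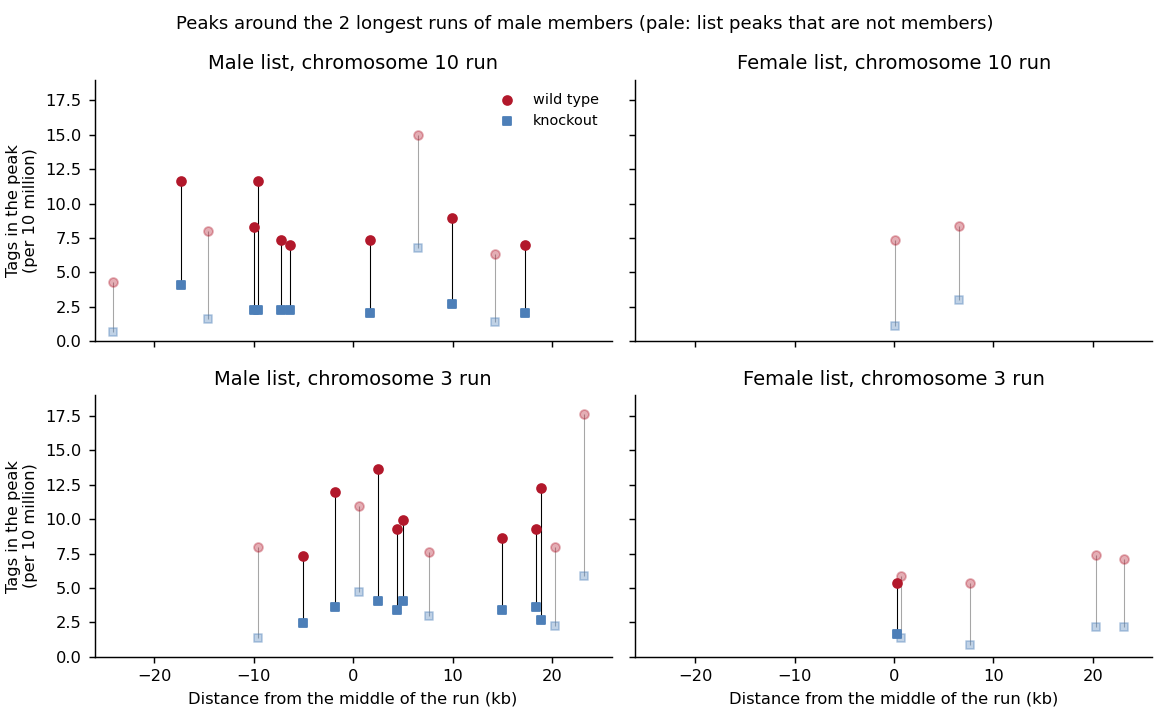
Wild-type (red circles) and knockout (blue squares) tags per 10000000 for each peak within 25 kb of the middle of the 2 longest male runs, in the male and female lists; pale points are list peaks that are not members. The 8 chromosome 10 members sit at 2.03 to 4.06 knockout tags per 10000000, and the female list has 2 peaks there.

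The female runs were pairs. At chr6:128725935-128726504, neighbouring peaks had 21 and 29 wild-type and 6 and 9 knockout tags. At chr18:5155538-5162270, they had 21 and 27 against 6 and 8, and at chr17:56696234-56697161, 20 and 24 against 6 and 8. No peak of any other list had its centre in these 3 pairs.

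By chromosome, the male share ran from 4.44% on chromosome 13 (83 of 1870 peaks, Wilson 95% interval 3.59 to 5.47) to 10.3% on chromosome 19 (112 of 1088, 8.63 to 12.2). It was also high on chromosome 17 (9.27%), chromosome 11 (9.24%), chromosome 8 (8.82%) and chromosome 7 (8.67%), and low on chromosome 16 (5.00%), chromosome 1 (5.16%) and chromosome 3 (5.27%). The intervals of the 5 highest chromosomes lay above the whole-list share of 6.82%. In the female list, chromosome 13 was again lowest (6 of 873, 0.687%, 0.315 to 1.49), and chromosome 8 (2.37%) and chromosome 19 (2.34%) were highest. Over the 19 chromosomes the male and female shares had a Pearson r of 0.477 and a Spearman rho of 0.479, given as description; chromosome 7 was high in males and low in females (1.09%). Some of these chromosomes hold more tall male peaks: chromosome 11 had 9.43% of male members and 10.4% of height-matched peaks, and chromosome 19 had 4.14% and 4.45%. In the male list chromosome 7, with 7.32% against 5.39%, chromosome 8, with 6.88% against 4.89%, and chromosome 17, with 5.91% against 4.83%, held a larger share of members than of height-matched peaks. In the female list chromosome 7 went the other way, with 3.56% of members against 9.79% of height-matched peaks. Female values were 7.44% against 6.42% on chromosome 8 and 5.18% against 3.76% on chromosome 17. These 3 chromosomes were taken from those with high male shares. Chromosome 1, low in males, had 9.06% of female members against 4.11% of height-matched peaks, and 5.51% against 6.75% in males.

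**Figure D4:**
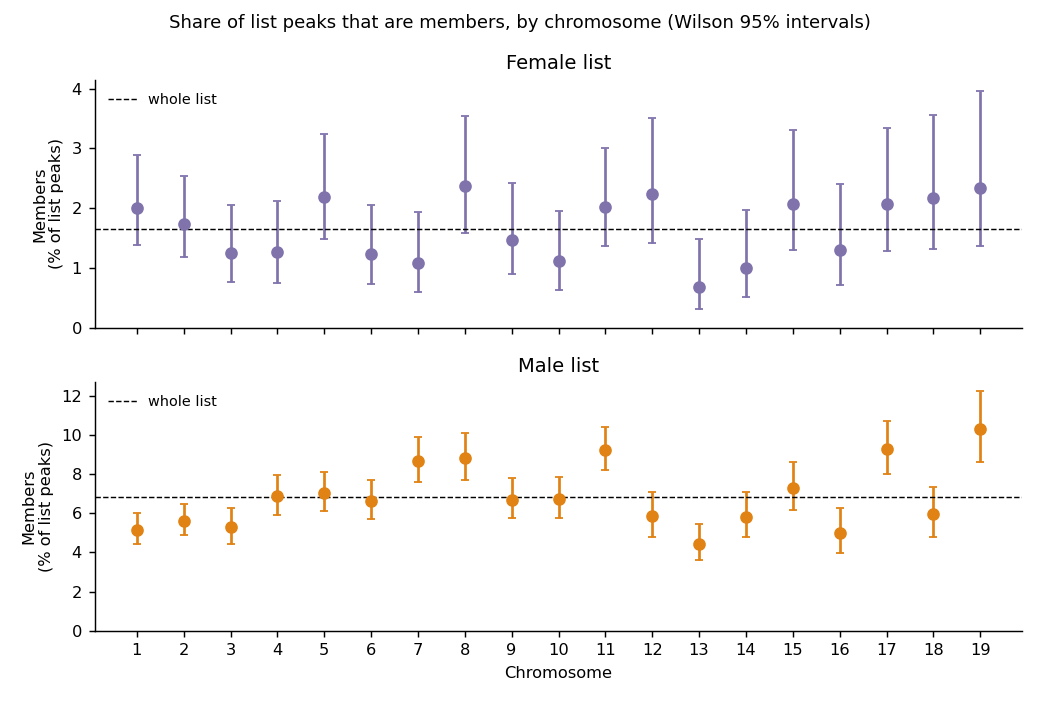
Members as a percent of the list's peaks on each of chromosomes 1 to 19 (points, with Wilson 95% intervals) in the female and male lists; the dashed line is the whole-list share of 1.65% or 6.82%. Chromosome 13 is lowest in both lists, and male values run up to 10.3% on chromosome 19.

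The rule removed peaks that overlap another list, yet members often had a neighbour there. Within 1 kb, centre to centre, 331 of 2705 male members (12.2%, 11.0 to 13.5) had a female peak, against 9.21% of height-matched comparison peaks and 3.83% of comparison peaks of any height. Of female members, 41 of 309 (13.3%, 9.93 to 17.5) had a male peak within 1 kb, against 23.5% of height-matched and 8.94% of unmatched comparison peaks. Set against peaks of equal height, the difference was upward in the male and downward in the female list; whether the lists differ in this was not tested, and after weighting the comparison peaks count as about 1220 male and 339.5 female ones. Between 21 and 24 wild-type tags the shares were 120 of 943 male members (12.7%, 10.8 to 15.0) and 76 of 867 comparison peaks (8.77%, 7.06 to 10.8), and 24 of 153 female members (15.7%, 10.8 to 22.3) and 76 of 286 comparison peaks (26.6%, 21.8 to 32.0). At 17 to 20, 25 to 29 and 30 to 60 tags, male members had 9.661%, 13.23% and 14.74%, comparison peaks 7.997%, 11.42% and 12.5%. In females these were 14.29%, 9.756% and 8.0%, against 18.83%, 20.97% and 9.091%. The intervals of members and comparison peaks overlap in every range of both lists, 21 to 24 included, where the male gap was widest. Overlap itself, before the rule removed it, differed in the same directions. The male peaks with enough knockout tags overlapped the female list at 16.3% (15.1 to 17.5), against 10.3% of height-matched peaks, and the female ones the male list at 28.3% (24.5 to 32.4), against 34.4%.

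Peaks of 3T3-L1 cells lay farther off. Within 10 kb of an FCCP peak were 331 of 2705 male members (12.2%) and 31 of 309 female members (10.0%), against 10.0% and 10.7% of height-matched peaks and 21.2% and 25.2% of comparison peaks of any height. For the untreated list the members' shares were 8.47% and 9.06%, and the height-matched ones 6.69% and 10.3%. The median distance to an FCCP peak was 65820 bp for male and 70140 bp for female members, and 65840 bp and 71220 bp for height-matched peaks. These distances hold for peaks left after overlap with 3T3-L1 peaks was removed. That overlap was 13.1% of female peaks with enough knockout tags, against 8.05% at equal height with fewer and 5.23% at any height with fewer. In males it was 9.33%, against 4.34% and 4.60%.

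**Figure D5:**
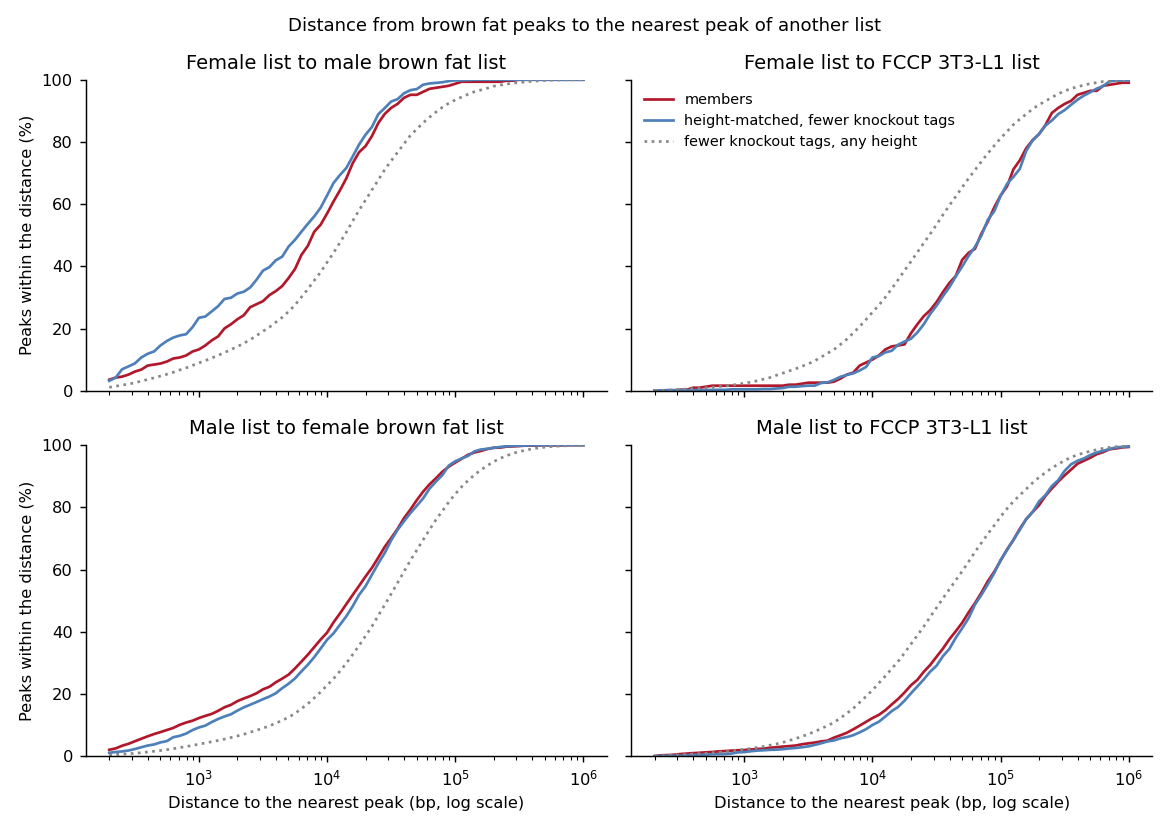
Share of peaks (vertical axis, percent) with a peak of another list within a given distance (horizontal axis, log scale), for members (red), height-matched peaks with fewer knockout tags (blue) and such peaks of any height (dotted grey). At 1 kb from the other brown fat list the female members, at 13.3%, are below the 23.5% of height-matched peaks, and the male members, at 12.2%, above the 9.21%; toward the FCCP list members and height-matched peaks lie close together.

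Male and female members, which cannot overlap by rule, were next compared in windows of the genome. Of 254 windows of 1 Mb with a female member, 205 also had a male one (80.7% of the female and 20.3% of the 1011 male windows), where 40.9% of all 2472 windows had a male member. In such windows lay 258 of 309 female members (83.5%, 78.9 to 87.2) and 877 of 2705 male members (32.4%, 30.7 to 34.2). Height-matched comparison peaks did so at 86.4% and 30.7%, close to the members' shares. Across windows the numbers of male and female members had a Spearman rho of 0.339, and those of comparison peaks 0.796; the windows are neighbours on shared chromosomes, and members are few per window. The window of chromosome 19 from 5 to 6 Mb held 4 members among 18 female list peaks and 14 among 59 male list peaks. In the whole lists members make up 1.65% and 6.82%. No other window held more female members, and 1 other, on chromosome 11 from 106 to 107 Mb, held as many, among 27 female list peaks.

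Within 10 kb, 54 female members (17.5%, 13.6 to 22.1) had a male member, and 67 male members (2.48%, 1.95 to 3.13) a female one. At equal height, comparison peaks had a member of the other list as near at 21.8% and 1.95%. The 5 closest pairs were 140 to 169 bp apart, just beyond the width of a peak. On chromosome 5 the female peak at 125764966 to 125765104 had 20 wild-type and 6 knockout tags and the male peak at 125765108 to 125765242 had 40 and 22, or 3.09-fold and 2.68-fold. On chromosome 9 the female peak at 21753339 to 21753477 had 24 and 7 tags (3.17-fold) and the male peak at 21753199 to 21753333 had 26 and 16 (2.40-fold). The others were on chromosome 15 (female 101931569 to 101931707 with 27 and 8 tags, male 101931427 to 101931561 with 29 and 14), chromosome 3 (female 153850535 to 153850673 with 20 and 6, male 153850374 to 153850508 with 20 and 9) and chromosome 18 (female 61762890 to 61763028 with 23 and 6, male 61763061 to 61763195 with 25 and 13). In these 5 pairs the folds over the surroundings of the female and male partners were 5.29 and 7.5, 6.26 and 7.36, 3.71 and 3.75, 5.35 and 5.87, and 4.00 and 4.85. These pairs were picked as the closest, and every member has tags of both genotypes by rule, so their nearness is no test. The lists count them as separate peaks.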

How the data were processed

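GPS2 ChIP-seq peak lists were used: 2 of brown adipose tissue, each from 1 wild-type library with the same-sex knockout as its control, and 2 of 3T3-L1 cells, each called on a pool of 2 libraries without control, per the file headers. The submitters' processing notes name mm8, Bowtie2 and HOMER, without versions. Brown adipose calls used a false discovery rate of 0.05 and cell calls 0.001 with 4-fold over the local region, per the file headers.

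The deposited normalized tag count and scaled tags are a signal, the male total tags are a count, the focus ratio is a fraction, the folds are a ratio, and HOMER's peak score and p-value entered no comparison. Deposited knockout values of 0.5 (female) and 0.3 (male) stand in place of 0. Whole tags were recovered from the size of 1 tag (0.926 and 0.678), which gave whole numbers within 0.05 for 99.5% of female and 99.6% of male values.

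Here, overlap meant at least 1 shared bp. Height-matched values weight comparison peaks to the members' wild-type tag counts. Ratios carry exact 95% intervals, shares Wilson intervals and medians binomial rank intervals, for counting error only. Named peaks are the 5 with the most knockout tags, the highest and lowest local folds and folds over knockout, the 3 longest runs per list and the 5 closest pairs between lists. The members and lists were chosen with earlier results of these data known. Positions are mm8; gene annotation of that build was not used here. Steps were tested on simulated data. Tables were made with pandas 2.3.3 and numpy 2.4.6, intervals with SciPy 1.17.1 and plots with matplotlib 3.10.9, under Python 3.11.15.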

Additional observations from a re-analysis of the deposited data

How the results depend on the processing

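Of 68 recomputed values, 38 stayed within 1.5 times (numbers of members) or within the interval of the reported value, and 30 moved. No paired analysis was possible because each group had 1 library. Numbers of members followed the limit on the deposited knockout value, which is scaled in the male list. At 5 or more there were 666 female members (3.56% of the list) and 9.57% of the male list. Such male peaks had at least 8 whole tags. At 8 or more there were 90 female (0.481%) and 923 male members (2.33%), the latter with at least 12 whole tags. A common minimum of 2 tags per 10000000 also left 90 female members (0.481%). With overlap allowed there were 495 female members (2.64%) and 9.01% of the male list, and with no other list's peak within 1000 bp 1.39% and 5.77%. Below 10 normalized tags the male share was 6.15%, and at 4-fold over the local region 6.51%.

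The difference in local fold between members and peaks of equal height was -0.28 in females at both the limit of 8 and the common minimum (interval -0.8 to 0.22). In males with overlap allowed it was 0.21 (0.07 to 0.32). Both intervals cover the members' median only and leave out the error of the comparison median. Without height matching the difference was 1.09 in females and 0.55 in males, which is a difference in height as well. The share of members with another within 10 kb was 0% of 90 at both stricter female limits, which allows up to 3.33%. In males it was 24.4% and 12% at deposited limits of 5 and 8. It was 16.4% below 10 normalized tags, 21.9% with overlap allowed and 13.4% at 4-fold over the local region. Within 100 kb the shares were 13.3% and 58.3%. Wider or narrower limits add or remove peaks by construction; beyond that, the cause was not tested. Depth limits single peaks: 7 knockout tags carry a counting error of 37.8%, and 10 carry 31.6%.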
